A study of Mus musculus with 24 samples.

Results

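Brown adipose tissue of mice given LAGIPRA, a long-acting agonist of the receptor for glucose-dependent insulinotropic polypeptide (GIP), was compared with that of mice given vehicle under pair feeding. These 2 groups were chosen by the treatment label of each sample, and together they make up 12 of the 24 samples of the series, 6 LAGIPRA and 6 PairFedVehicle. All animals were C57BL/6J mice, described as obese and insulin resistant in the title of the series, and polyA RNA of the whole tissue was sequenced. The other 12 samples, 6 Vehicle and 6 TZP (tirzepatide, an agonist of the receptors for GIP and glucagon-like peptide 1), entered the fit so that all 4 groups shared 1 estimate of the spread. Dose, duration, diet, age, sex and the group whose intake set the pair-fed ration are not given in the labels. The comparison addresses which transcripts in brown fat differ between animals on the agonist and animals whose food was restricted without it.

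The GIP receptor is a class B receptor that couples to Gs and raises cyclic AMP, and in adipose tissue GIP is known as an incretin hormone that favours lipid storage after a meal. Brown fat takes up glucose and fatty acids, makes fatty acids de novo from glucose through citrate and acetyl-CoA, and burns both fuels in mitochondria uncoupled by UCP1. Its lipogenic genes are known to be induced by feeding, insulin and the carbohydrate-responsive factor ChREBP, and to be lowered when food is withheld.

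Values are the deposited log2 expression values, and a difference is the LAGIPRA mean minus the PairFedVehicle mean on that scale. A gene was called where its Benjamini-Hochberg adjusted p from limma over all genes tested was under 0.05. Of 17263 genes tested, 2046 were called, which is 11.9%. LAGIPRA was the higher group for 1260 of them (7.3% of the genes tested) and the lower group for 786 (4.55%). A change of at least 1.5-fold was found for 515 of the higher and 252 of the lower genes. For 1011 genes (5.86%) the 6 LAGIPRA values did not overlap the 6 PairFedVehicle values. The median difference over all genes tested was -0.01.

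**Figure D1:**
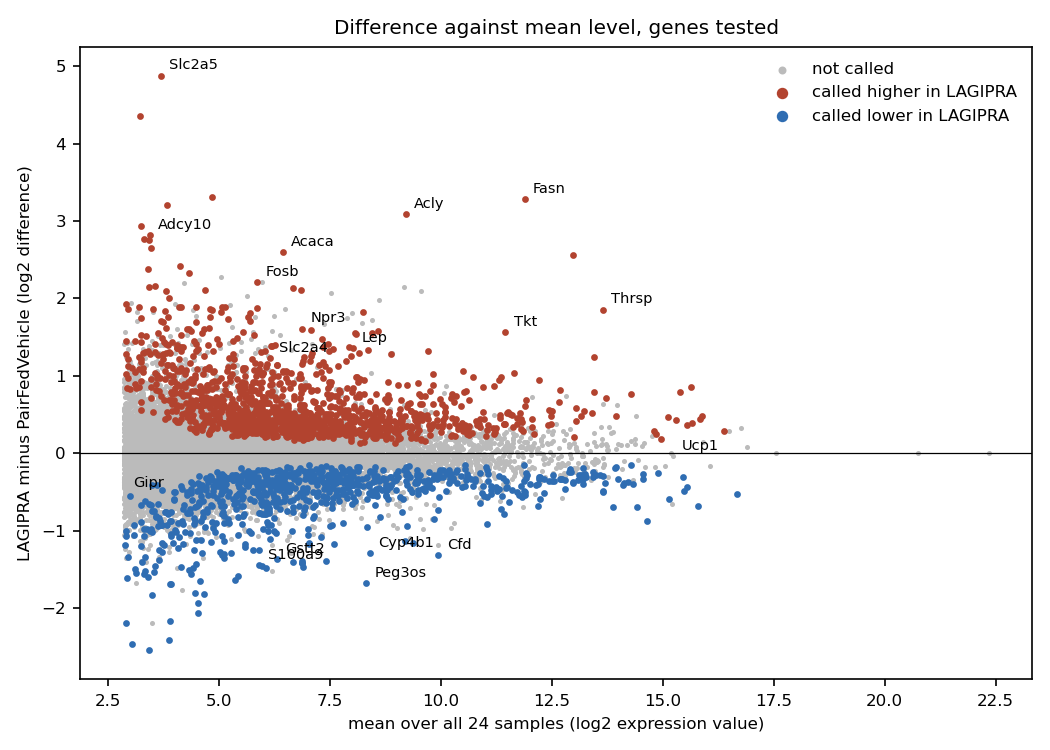
Difference between LAGIPRA and PairFedVehicle (log2, vertical) against the mean over all 24 samples (log2 expression value, horizontal) for the 17263 genes tested; red points were called higher and blue points lower in LAGIPRA. Fasn, Acly and Acaca stand at differences of 3.28, 3.08 and 2.59, while Ucp1 lies at -0.03.

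Tissue identity and the libraries were checked first. The brown adipocyte genes Ucp1 and Cidea stood at 15.1 to 15.7 and 13.1 to 13.8 in the 12 libraries, while the mesothelial markers had no member above the filter. The mean of 16 skeletal muscle markers ran from 5.88 to 9.05 in LAGIPRA and from 0.93 to 9.79 in PairFedVehicle, and 11 of the 16 were below 1 in PairFedVehicle 5. That library also stood farthest out on the first principal component of the 12 samples (31.5% of the variance), at 70.1, and PairFedVehicle 6 lay on the side of the LAGIPRA samples at -23.2. The value that 1 read takes, inferred from the commonest low value and larger in shallower libraries, was 1.12 to 1.68 in LAGIPRA and 1.02 to 1.26 in PairFedVehicle. With this value of 1 read as a covariate 1268 genes were called, and without the 3 libraries whose muscle mean was under 2 there were 523 lower calls. In whole tissue, fewer cells of a type and less RNA per cell cannot be told apart. The description codes run consecutively within a group, so sample order and treatment cannot be told apart.

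The gene lists below differed widely in the share of members called.

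**Figure D2:**
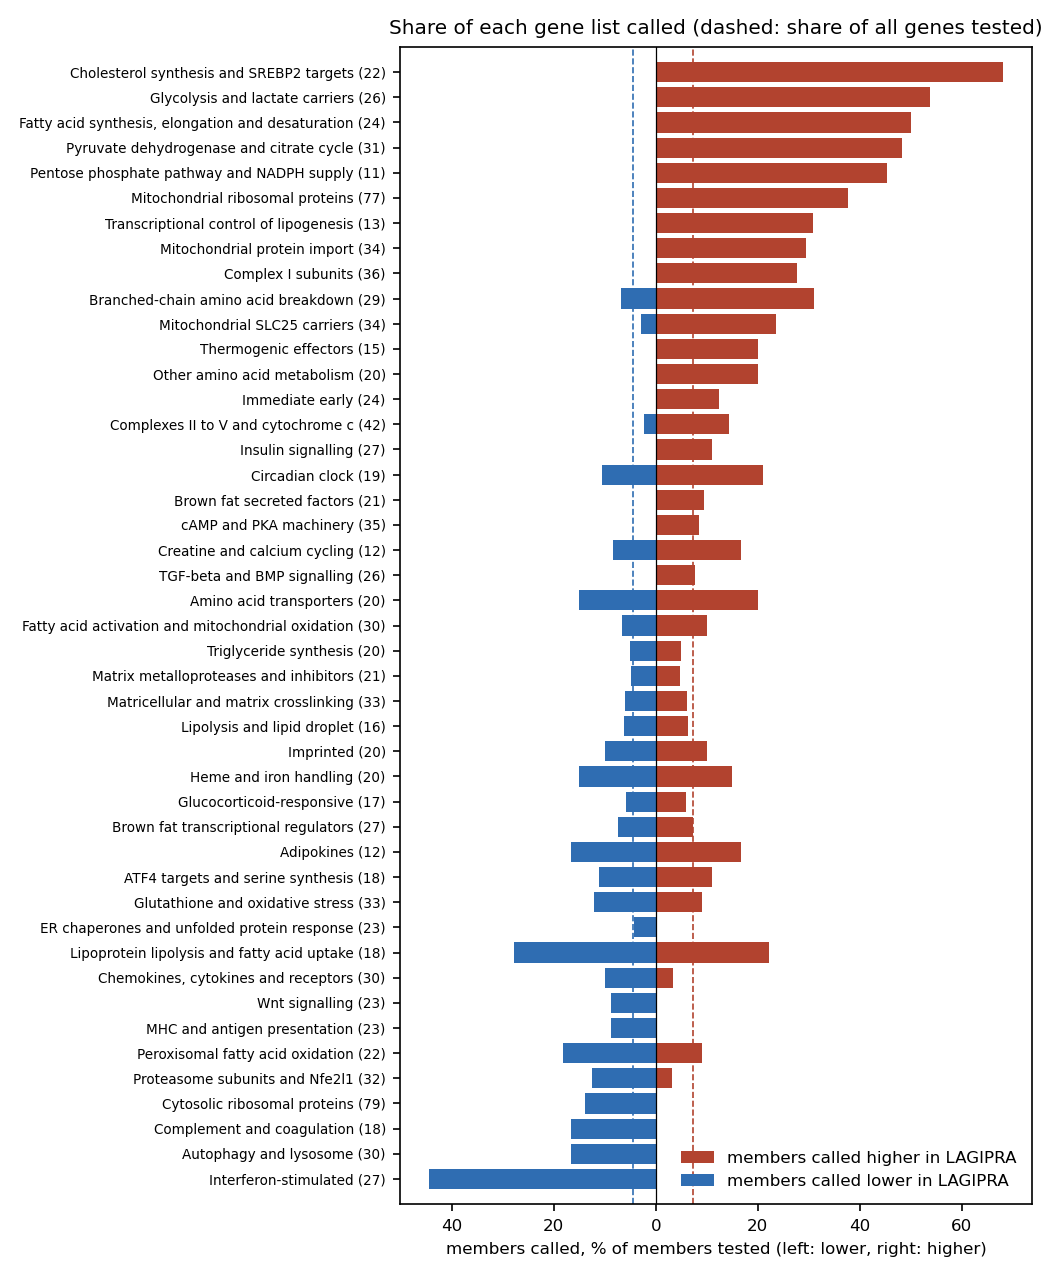
Share of tested members called higher (red, to the right) or lower (blue, to the left) in LAGIPRA than in PairFedVehicle, in percent, for each pathway list with 10 or more members tested and at least 1 called; the number tested is in parentheses and dashed lines mark the shares over all genes tested, 7.3% and 4.55%. Lists of lipid synthesis and glucose use lie at the top with no member lower, and interferon-stimulated genes lie at the bottom with no member higher.

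Core genes of fatty acid synthesis were far higher in LAGIPRA than in PairFedVehicle. Of 24 tested members of the list of synthesis, elongation and desaturation, 12 were higher and none lower, with a median difference of 0.49. Fasn encodes fatty acid synthase, which assembles palmitate. It stood at 9.41, 9.70 and 10.45 (lowest, median and highest) in PairFedVehicle and at 12.33, 12.99 and 13.85 in LAGIPRA, a 9.72-fold difference of 3.28 ± 0.37 (SE, adjusted p = 4.5e-06). Acly encodes ATP-citrate lyase, which releases cytosolic acetyl-CoA from citrate, and Acaca encodes acetyl-CoA carboxylase 1, which makes malonyl-CoA. Acly ran from 6.97 to 7.28 around a median of 7.15 in PairFedVehicle and from 9.72 to 11.001 around 10.07 in LAGIPRA, a difference of 3.08 ± 0.28 (adjusted p = 2.6e-07). Acaca ran from 4.44 to 5.09 in PairFedVehicle and from 6.81 to 7.96 in LAGIPRA, a difference of 2.59 ± 0.30 (adjusted p = 7.2e-06). No sample of either group overlapped the other for these 3 genes, and LAGIPRA 4 and 5 held the highest values of Fasn, Acly and Acaca.

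Upstream sequence is shown for Fasn and Acly because they had the largest differences in the list, and for Sc5d because it is a called gene of cholesterol synthesis with an E-box. Each is the 250 bases before the RefSeq gene start (GRCm38.p6), 5′ to 3′ on the gene's strand. Capitals mark the CCAAT box (CCAAT), the GC box (GGGCGG) and the E-box (CACGTG), each searched on both strands.

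Fasn, chr11:120824548-120824797, minus strand: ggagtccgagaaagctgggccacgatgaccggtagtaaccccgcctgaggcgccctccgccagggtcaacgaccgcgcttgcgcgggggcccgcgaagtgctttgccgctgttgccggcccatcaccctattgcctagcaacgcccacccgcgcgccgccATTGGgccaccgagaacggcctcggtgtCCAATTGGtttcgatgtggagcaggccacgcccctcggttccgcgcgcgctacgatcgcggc

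Acly, chr11:100528001-100528250, minus strand: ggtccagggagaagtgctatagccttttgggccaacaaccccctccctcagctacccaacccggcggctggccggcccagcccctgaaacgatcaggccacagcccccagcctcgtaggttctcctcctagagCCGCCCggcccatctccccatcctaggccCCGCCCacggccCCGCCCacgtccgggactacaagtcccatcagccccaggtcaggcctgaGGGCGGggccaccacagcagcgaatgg

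Sc5d, chr9:42264301-42264550, minus strand: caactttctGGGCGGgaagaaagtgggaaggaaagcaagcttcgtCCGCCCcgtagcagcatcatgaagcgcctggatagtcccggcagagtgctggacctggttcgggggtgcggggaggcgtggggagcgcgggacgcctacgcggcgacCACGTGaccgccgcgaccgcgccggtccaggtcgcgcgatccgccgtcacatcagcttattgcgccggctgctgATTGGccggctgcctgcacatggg

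The Fasn window held 3 CCAAT boxes, 90 to 86, 62 to 58 and 59 to 55 bases before the start, and the last 2 overlap on opposite strands. Acly had 4 GC boxes within the last 117 bases. In Sc5d an E-box lay 98 to 93 bases before the start, beside 1 CCAAT box and 2 GC boxes. Over the windows of all genes tested, 34.8% held a CCAAT box, 53.3% a GC box and 7.82% an E-box. In the fatty acid list, 10 of 21 windows held a CCAAT box and 2 of 21 an E-box, while none of 21 held the CRE (TGACGTCA) or the ERR element (TCAAGGTCA), found in 2.4% and 0.276% of the windows of all genes tested. The core of the sterol regulatory element (SRE, TCACNCCAC) was in none of these 21 windows. It was in 1 of 18 windows of the cholesterol list and in 1.04% of the windows of all genes tested. In the cholesterol list 14 of 18 windows held a CCAAT box, 15 of 18 a GC box and 3 of 18 an E-box. Windows of genes called higher held a CCAAT box in 38.6%, a GC box in 52.5% and an E-box in 7.12%. For genes called lower these shares were 35.6%, 51.6% and 10.1%. A window was found for 66.14% of the genes tested, so the shares do not cover the other genes. Differences between motif shares were not tested.

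Around this core, Thrsp, encoding the lipogenic regulator Spot 14, differed by 1.85 ± 0.21 (adjusted p = 6.1e-06), from 12.09 to 13.26 in PairFedVehicle and from 13.98 to 14.85 in LAGIPRA. Elovl6, the elongase that turns palmitate into stearate, differed by 1.55 ± 0.27 (adjusted p = 0.00051). The stearoyl-CoA desaturases place the double bond of oleate, and 3 of them were higher. Scd2 ran from 6.95 to 7.18 in PairFedVehicle and from 8.38 to 9.19 in LAGIPRA, a difference of 1.83 ± 0.23 (adjusted p = 1.9e-05). Scd4 differed by 1.06 and Scd1 by 0.77 ± 0.23 (adjusted p = 0.032), and the groups overlapped for both. Scd1 was no longer called without LAGIPRA 2, 3, 4 or 6 or without PairFedVehicle 4, 5 or 6. Smaller differences were called for Mid1ip1 (0.99), Tecr (0.67), Fads3 (0.52) and Hsd17b12 (0.35). Fads3 lost its call without LAGIPRA 2, 3, 4, 5 or 6 or PairFedVehicle 3, 4 or 5 and Hsd17b12 without PairFedVehicle 2, with adjusted p from 0.052 to 0.094. The 12 members that were not called included the elongases Elovl1, Elovl3 and Elovl5 and the desaturases Fads1 and Fads2.

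Several other genes that supply acetyl-CoA or NADPH were called, and those named next come from several lists or from none. Slc25a1, the mitochondrial citrate carrier, stood at 7.0, 7.40 and 7.82 in PairFedVehicle and at 8.51, 8.92 and 9.57 in LAGIPRA, a difference of 1.56 ± 0.21 (adjusted p = 4.4e-05). Me1, cytosolic malic enzyme and a source of NADPH, differed by 1.34 ± 0.21 (adjusted p = 0.00018). Acss2, which activates acetate, differed by 1.47 ± 0.15 (adjusted p = 1.3e-06), and Aacs, which activates acetoacetate in the cytosol, by 2.14 ± 0.19 (adjusted p = 2.6e-07). All 6 LAGIPRA values lay above all 6 PairFedVehicle values for each of these 4 genes. Among the 13 transcriptional regulators of lipogenesis, 4 were higher and none lower. They were Pnpla3 (1.29), Insig1 (0.96), Mlxipl, which encodes ChREBP (0.63 ± 0.15, adjusted p = 0.0072), and its partner Mlx (0.25), which was called with all libraries but not when any 1 library other than LAGIPRA 2 was left out (adjusted p 0.054 to 0.13). Srebf1 (0.12, adjusted p = 0.44) and Srebf2 (0.08, adjusted p = 0.65) were not called.

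**Figure D3:**
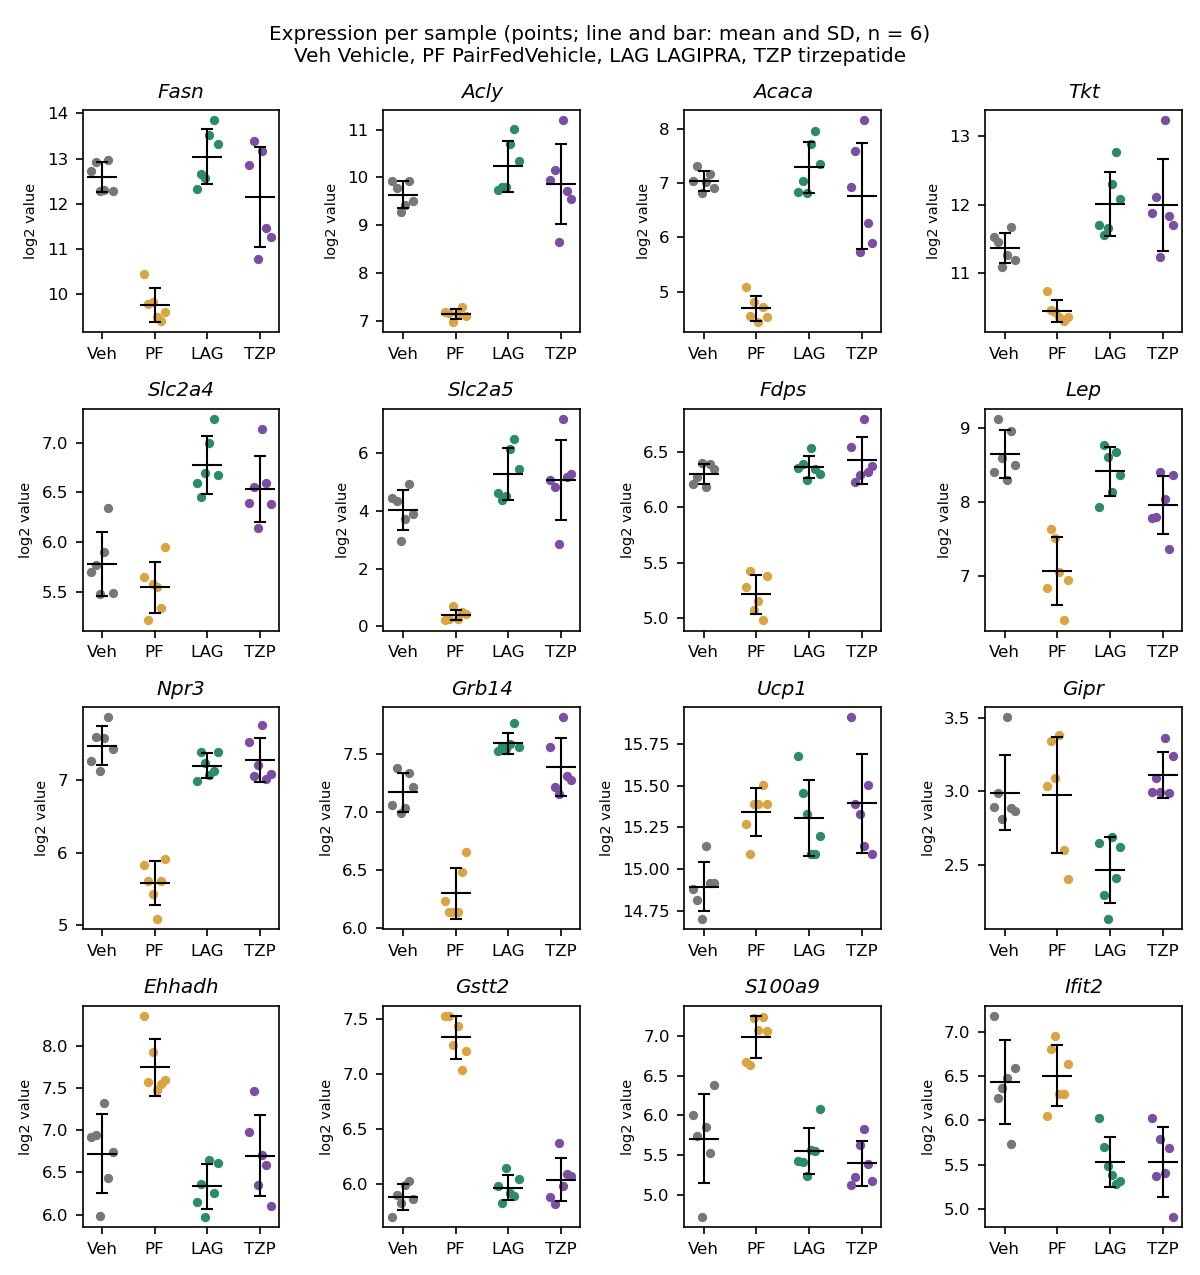
Log2 expression value (vertical) of 16 genes in each of the 6 samples of Vehicle, PairFedVehicle, LAGIPRA and TZP; points are samples, and lines with bars are the mean and SD. For Fasn, Acly, Acaca, Slc2a5, Npr3 and Grb14 the 6 PairFedVehicle samples lie below every LAGIPRA sample, and for Ehhadh, Gstt2 and S100a9 above them, while Ucp1 overlaps.

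Cholesterol synthesis was the list with the largest share of members called. Of 22 tested members, 15 were higher in LAGIPRA and none lower, with a median difference of 0.63. Fdps, farnesyl diphosphate synthase, ran from 4.98 to 5.42 in PairFedVehicle and from 6.25 to 6.54 in LAGIPRA, a difference of 1.15 ± 0.09 (adjusted p = 7.5e-08). Nsdhl, a sterol C4 demethylation enzyme, differed by 1.18 ± 0.11 (adjusted p = 2.6e-07). Further along the pathway, Sc5d, sterol C5 desaturase, differed by 0.91 and Dhcr7, the final reductase, by 0.64. Hmgcs1, an enzyme at the entry to the pathway, was not called (-0.17 ± 0.13, adjusted p = 0.46). Squalene epoxidase, Sqle, was called at 0.61 (adjusted p = 0.044) and overlapped between the groups. It lost its call without LAGIPRA 1, 2, 3, 4 or 6 or PairFedVehicle 1, 4, 5 or 6. The count stayed between 14 and 15 when any 1 of the 12 libraries was left out.

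Of 7 glucose transporters tested 2 were called, both higher. Slc2a4 encodes GLUT4, the insulin-responsive glucose transporter, and stood at 5.21, 5.56 and 5.95 in PairFedVehicle and at 6.46, 6.69 and 7.24 in LAGIPRA. The difference was 1.23 ± 0.17 (2.35-fold, adjusted p = 3.7e-05) and the groups did not overlap. Slc2a5 encodes the fructose transporter GLUT5. Its values were 4.38 to 6.49 in LAGIPRA and 0.23 to 0.71 in PairFedVehicle, below the value of 1 read in every library of that group, so no fold is given. The other 5 glucose transporters tested were not called.

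Of 26 glycolysis genes and lactate carriers, 14 were higher and none lower, with a median of 0.55. Gpd1 diverts dihydroxyacetone phosphate to glycerol 3-phosphate, the backbone of triglyceride, and ran from 12.41 to 13.12 in PairFedVehicle and from 13.69 to 14.31 in LAGIPRA (1.25 ± 0.17, adjusted p = 3.3e-05). Enolase, Eno1, differed by 1.20 ± 0.14 (adjusted p = 7.2e-06), pyruvate kinase, Pkm, by 0.72, lactate dehydrogenase A, Ldha, by 0.74, Gapdh by 0.70 and hexokinase 2, Hk2, by 0.67. Hk2 was not called without LAGIPRA 5 or 6 or PairFedVehicle 2 (adjusted p 0.051 to 0.058). Nearly every step from hexokinase to lactate was on the list of called genes, including Gpi1 (0.60), Pfkl (0.54), Aldoa (0.56), Tpi1 (0.32), Pgk1 (0.57) and Pgam1 (0.61). The muscle isoforms Eno3, Pgam2 and Pfkm were not called (1.05, 1.75 and 0.38) and ranged widely within both groups. Several glycolytic genes have near-identical pseudogenes, and their values are uncertain where reads were shared. Pygl, glycogen phosphorylase of the liver type, lay outside the list and differed by 1.58 ± 0.23 (adjusted p = 0.00011).

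The pentose phosphate pathway, which makes NADPH and ribose, had 5 of 11 members higher and none lower. Transketolase, Tkt, ran from 10.30 to 10.74 in PairFedVehicle and from 11.56 to 12.77 in LAGIPRA, a difference of 1.57 ± 0.23 (adjusted p = 0.00011). Pgd differed by 0.95, Taldo1 by 0.53 and G6pdx, the entry enzyme, by 0.39. The link from glycolysis to the citrate cycle was higher too, with 15 of 31 members called higher and none lower (median 0.32). The mitochondrial pyruvate carrier genes Mpc1 and Mpc2 differed by 0.59 and 0.60, and the pyruvate dehydrogenase genes Pdhb, Dlat, Pdhx and Pdha1 by 0.91, 0.64, 0.63 and 0.54, the last not called without LAGIPRA 5 (adjusted p = 0.052). Pdk4, the kinase that shuts the complex off in fasting, stood at 11.19 ± 0.32 in PairFedVehicle and 11.20 ± 0.22 in LAGIPRA (SD, n = 6) and was not called. With the 1-read covariate the 15 calls became 9.

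**Figure D4:**
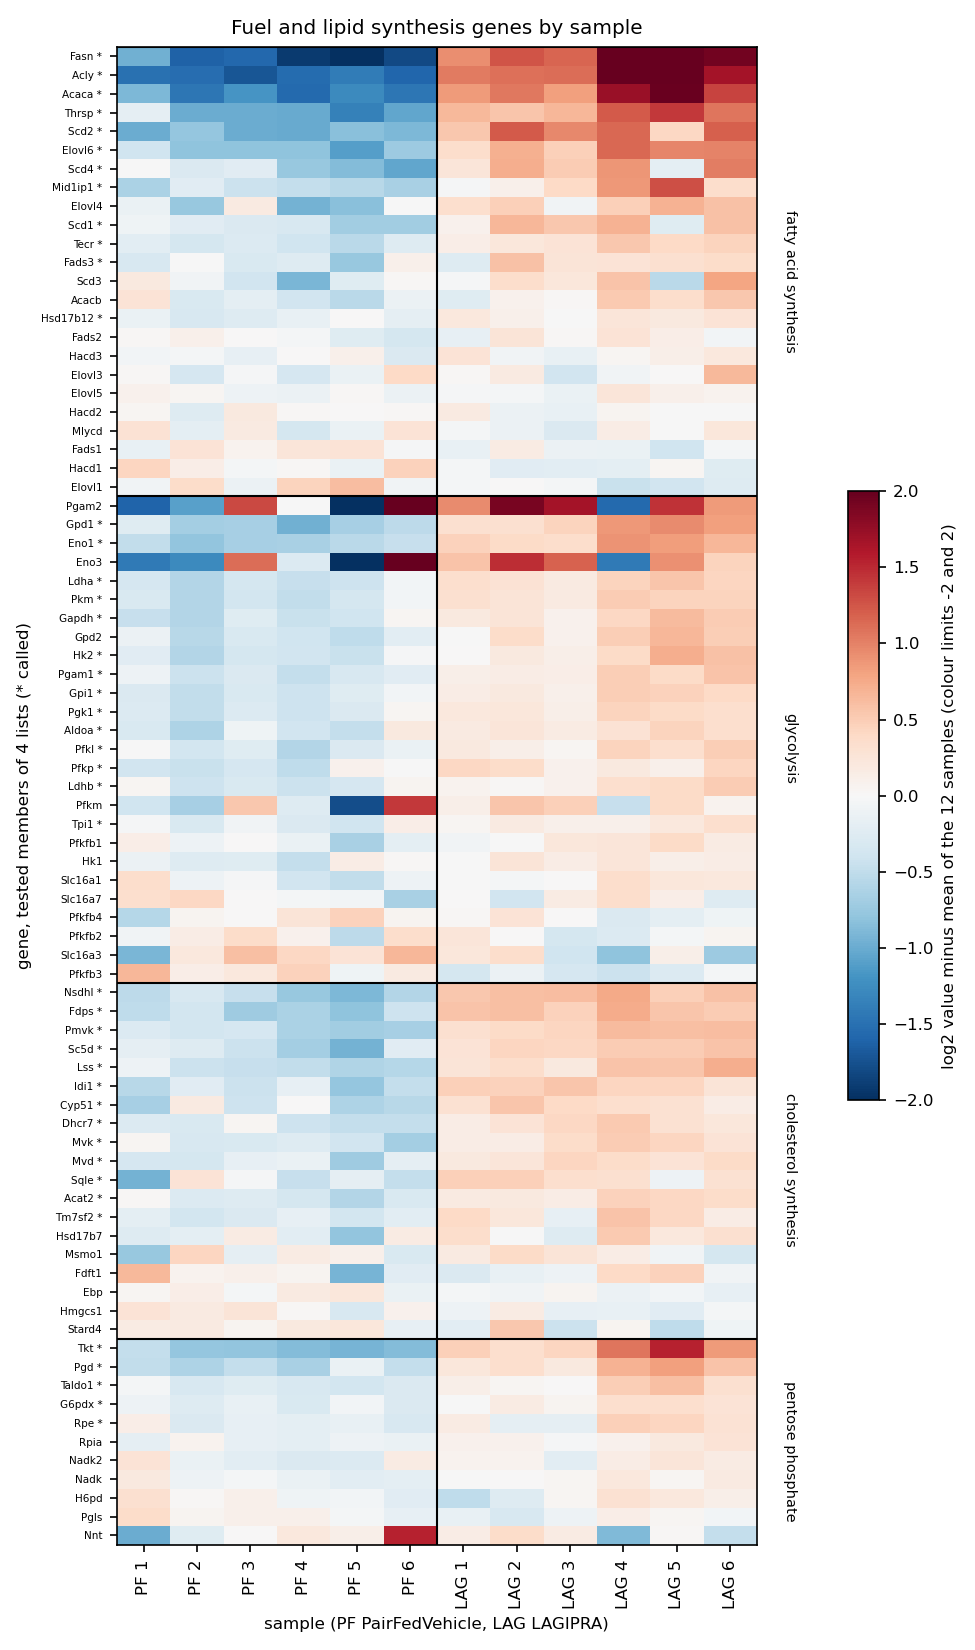
Log2 value minus the mean of the 12 samples (colour, limits -2 and 2) for tested members of the fatty acid synthesis, glycolysis, cholesterol synthesis and pentose phosphate lists, except 3 of the cholesterol list that are not reported here (rows, ordered by difference within a list; asterisks mark called genes) in the 6 PairFedVehicle and 6 LAGIPRA samples (columns). Most called genes are blue in the PairFedVehicle columns and red in the LAGIPRA columns, with exceptions such as Scd1 and Scd4 in LAGIPRA 5, and the muscle isoforms Pgam2, Eno3 and Pfkm vary within both groups.

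Genes for storing and releasing lipid differed little as lists. Of 20 triglyceride synthesis genes, Lpin1, a phosphatidate phosphatase, was higher (0.75, adjusted p = 0.02) and Gpat3, a glycerol phosphate acyltransferase, was lower (-0.78, adjusted p = 0.00073). Among 16 lipolysis and lipid droplet genes, Plin3 was higher (0.53) and Hilpda, an inhibitor of adipose triglyceride lipase, was lower (-0.70). Lpin1 lost its call without LAGIPRA 5, and Hilpda without LAGIPRA 5 or 6 or PairFedVehicle 4 or 5, with adjusted p from 0.0503 to 0.068. Without PairFedVehicle 1 or 6 there were 3 higher triglyceride genes. The lipases Pnpla2 (-0.13, adjusted p = 0.54) and Lipe (0.18, adjusted p = 0.25) and the droplet coat Plin1 (0.17, adjusted p = 0.35) were not called. The list of lipoprotein lipolysis and fatty acid uptake was mixed, with 4 of 18 higher and 5 lower. Slc27a2, a fatty acid transporter and acyl-CoA synthetase, differed by -0.90 ± 0.16 (adjusted p = 0.00077), its relative Slc27a1 by -0.70, Apoe by -0.79 and Cd36 by -0.30, whereas the acyl-CoA binding protein gene Dbi differed by 0.59. Lipoprotein lipase, Lpl, did not pass the test (0.08, adjusted p = 0.67).

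Fat oxidation genes were called in both directions. Of 22 peroxisomal genes, 4 were lower and 2 higher, beside 4.55% lower and 7.3% higher over all genes tested. Ehhadh, the peroxisomal bifunctional enzyme, ran from 7.47 to 8.35 in PairFedVehicle and from 5.97 to 6.65 in LAGIPRA, a difference of -1.41 ± 0.22 (adjusted p = 0.00016). Acot4 differed by -1.80 ± 0.39 (adjusted p = 0.0035), Acaa1b by -0.70 and Decr2 by -0.38. Among 30 genes of fatty acid activation and mitochondrial oxidation, Cpt1a (-0.68) and Acot2 (-0.56, adjusted p = 0.049) were lower, and Acss2, Acsl5 and Acad9 were higher, 8 genes being higher without PairFedVehicle 1. Decr2 lost its call when any 1 library other than LAGIPRA 1 or PairFedVehicle 5 or 6 was left out, and Acot2 for any other than LAGIPRA 6 or PairFedVehicle 4, with adjusted p from 0.0501 to 0.11. Cpt1b, the main carnitine palmitoyltransferase of brown fat, was not called (0.08, adjusted p = 0.68). Cyp4b1, a fatty acid hydroxylase gene outside the lists, ran from 8.85 to 9.64 in PairFedVehicle and from 7.86 to 8.13 in LAGIPRA (-1.29 ± 0.11, adjusted p = 1.2e-07).

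Called mitochondrial genes were mostly higher, by small amounts. Of 77 mitochondrial ribosomal protein genes 29 were higher and none lower (median 0.22), led by Mrps6 (0.80 ± 0.09, adjusted p = 7.2e-06) and Mrps22 (0.55 ± 0.07, adjusted p = 3.1e-05). Mrps6 overlaps the tested protein-coding gene Slc5a3 in RefSeq, so reads could have been shared between them. Of 36 complex I subunits 10 were higher and none lower, with a median of 0.22. Of 42 genes of complexes II to V and cytochrome c 6 were higher, among them Atp5o (0.37), and Cox8a was lower (-0.48). Of 34 protein import genes 10 were higher, among them Timm50 (0.34) and Tomm40l (0.37), and of 34 SLC25 carriers 8 were higher, among them Slc25a39 (0.44), and 1 lower. Cox8a is so abundant that quantile normalization gave it 12 exact repeats among its 24 values.

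These mitochondrial counts moved with the library left out. Complex I fell to 5 or 6 calls without LAGIPRA 4, 5 or 6 or without PairFedVehicle 2, 3, 4 or 5. For complexes II to V the count was 3 without LAGIPRA 4, 5 or 6 or PairFedVehicle 2, 4 or 5, 10 without LAGIPRA 2, 16 without PairFedVehicle 1 and 12 without PairFedVehicle 6. Import genes went to 5 or 6 without LAGIPRA 4, 5 or 6 or PairFedVehicle 2, 4 or 5, and SLC25 carriers to 4 or 5 without these libraries or PairFedVehicle 6. The mitochondrial ribosomal count was 46 without PairFedVehicle 1 and 23 or more without any other library. With the 1-read covariate the 5 counts were 17 for the mitochondrial ribosome, 3 for complex I, 2 for complexes II to V, 5 for import and 4 for the carriers. In the same order they were 27, 5, 3, 8 and 5 with the muscle marker mean as a covariate. A replicate block on the 12 samples alone gave 7, 0, 1, 2 and 2. All 16 muscle markers lay above 0 in this comparison, with a median of 1.60, and none was called.

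Cytosolic ribosomal proteins went the other way, with 11 of 79 lower and none higher and a median of -0.16. Rpl37 ran from 9.24 to 9.57 in PairFedVehicle and from 8.92 to 9.22 in LAGIPRA (-0.35 ± 0.08, adjusted p = 0.0042). The count was between 4 and 7 without LAGIPRA 4, 5 or 6 or PairFedVehicle 2, 4 or 5, and 20 without PairFedVehicle 1. It was 3 with the 1-read covariate, 6 with the muscle covariate and 1 with the replicate block on the 12 samples alone. Ribosomal protein genes have many processed pseudogenes, and their values are uncertain where reads were shared. Of 32 proteasome genes 4 were lower and 1 higher, none by more than 0.26. The 4 became 2 without LAGIPRA 6 or PairFedVehicle 4, and none was higher without LAGIPRA 2, 4, 5 or 6 or PairFedVehicle 2, 3, 4 or 5.

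In the breakdown of branched-chain amino acids, 9 of 29 genes were higher and 2 lower. Those higher included Mmab (0.66) and Mcee (0.33 ± 0.09, adjusted p = 0.019), both on the route from propionate to succinyl-CoA, Acad8 of valine breakdown (0.44) and Bckdhb of the branched-chain ketoacid dehydrogenase (0.31). Hsd17b10 was among the lower genes (-0.44). Mcee lost its call without LAGIPRA 6 or PairFedVehicle 2 and Bckdhb without PairFedVehicle 2 (adjusted p 0.052 to 0.059). The count of higher genes was 3 to 5 without LAGIPRA 4, 5 or 6 or PairFedVehicle 2, 3, 4 or 5. It was 3 with the 1-read covariate, 5 with the muscle covariate and 3 with the replicate block on the 12 samples alone. Of 20 other amino acid enzymes 4 were higher, among them Aldh4a1 of proline breakdown (0.51), and 2 without LAGIPRA 4 or PairFedVehicle 5. Of 20 amino acid transporters 4 were higher, led by Slc7a6 (0.89 ± 0.12, adjusted p = 2.2e-05), and 3 were lower, led by Slc7a8 (-0.91 ± 0.21, adjusted p = 0.0055). The 4 higher became 2 without LAGIPRA 3, 4 or 5 or PairFedVehicle 4, 5 or 6, and the 3 lower became 5 without LAGIPRA 1.

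The thermogenic programme differed in a few members and not in its central gene. Ucp1 stood at 15.09, 15.39 and 15.51 in PairFedVehicle and at 15.09, 15.26 and 15.68 in LAGIPRA, a difference of -0.03 ± 0.12 (adjusted p = 0.89). Of 15 thermogenic effectors 3 were higher. They were Acot11, a cold-induced thioesterase (1.41 ± 0.26, adjusted p = 0.001), S100b, which brown adipocytes release to attract sympathetic nerves (1.04 ± 0.11, adjusted p = 3.9e-06), and Them4 (0.45). S100b is also a glial marker and stands on the list of Schwann and nerve markers, whose 7 other tested members were not called. Cidea (0.03), Dio2 (0.63 ± 0.38, adjusted p = 0.3) and Ppargc1a (-0.05) were not called. Of 27 brown fat regulators, Cebpb (0.55) and Esrra (0.31) were higher and the brown lineage factors Lhx8 (-0.76) and Zic1 (-0.59) were lower, while Prdm16 and Pparg were not called. In the creatine and calcium cycling list, Gamt (0.69), which makes creatine, and Ryr2 (0.38) were higher and the creatine transporter gene Slc6a8 (-0.52) was lower, of 12 tested. Ryr2 lost its call when any 1 library other than LAGIPRA 2 or PairFedVehicle 1 or 5 was left out. Zic1 lost its call without LAGIPRA 4 or 5 or PairFedVehicle 2 or 5, Esrra without LAGIPRA 6 or PairFedVehicle 4 or 5, Slc6a8 without LAGIPRA 4 or 6 or PairFedVehicle 5, and Them4 without LAGIPRA 4 or 5 or PairFedVehicle 2 or 4. The adjusted p of these 5 genes then ran from 0.0503 to 0.13. Without PairFedVehicle 1 there were 5 higher effectors.

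Receptors and signalling genes gave some of the clearest single differences. The agonist's own receptor, Gipr, was weakly detected, at 2.41 to 3.38 in PairFedVehicle and 2.13 to 2.69 in LAGIPRA, and was not called (-0.51 ± 0.19, adjusted p = 0.083). Npr3 encodes the clearance receptor that removes natriuretic peptides. It ran from 5.09 to 5.92 in PairFedVehicle and from 6.98 to 7.38 in LAGIPRA, with medians of 5.61 and 7.17, a 3.05-fold difference of 1.61 ± 0.15 (adjusted p = 2.6e-07). Npr1, the signalling receptor for the same peptides, differed by 0.44 (adjusted p = 0.0091). Npr3 overlaps the predicted gene Gm5144 in RefSeq, whose value differed by 1.60, so reads could have been shared between them. Of 8 adrenoceptors Adra1d (0.65) and Adrb3 (0.41 ± 0.12, adjusted p = 0.024) were higher, the latter not without LAGIPRA 4 or 5 or PairFedVehicle 2 or 4.

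Of 35 genes of cyclic AMP synthesis, breakdown and protein kinase A, 3 were higher and none lower. That share is near the 7.3% called higher over all genes tested. Adcy10, the bicarbonate-sensitive soluble adenylyl cyclase, ran from 0.68 to 2.24 in PairFedVehicle, near the value of 1 read, and from 3.79 to 5.03 in LAGIPRA (adjusted p = 2.1e-05). Crem (0.43) and Prkaca (0.24, adjusted p = 0.044) were the others, and Prkaca was not called when any 1 library other than LAGIPRA 1 or PairFedVehicle 1 or 3 was left out (adjusted p 0.059 to 0.12). Of 7 incretin and class B receptor genes tested, Ramp2, an accessory protein of the adrenomedullin receptor, was lower (-0.38), with 2 lower without LAGIPRA 2 or PairFedVehicle 1 or 6.

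Insulin signalling was called in 3 of 27 genes, each higher. That share is near the 11.9% called in either direction over all genes tested, where 7.3% were called higher. Grb14, an adaptor that inhibits the insulin receptor, stood at 6.13, 6.18 and 6.65 in PairFedVehicle and at 7.52, 7.56 and 7.76 in LAGIPRA, a difference of 1.29 ± 0.11 (2.45-fold, adjusted p = 1.2e-07). Pik3r1, the regulatory subunit of phosphoinositide 3-kinase, differed by 1.03 ± 0.15 (adjusted p = 0.00012) and Irs3, an insulin receptor substrate of adipose tissue, by 0.59 ± 0.14 (adjusted p = 0.0081). Groups did not overlap for Grb14 and Pik3r1. Insr (0.02 ± 0.31, adjusted p = 0.98) and Irs2 (-0.52 ± 0.25, adjusted p = 0.19) were not called.

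Among 12 adipokines 2 were higher and 2 lower. Leptin, Lep, which reports fat stores to the brain, ran from 6.39 to 7.64 in PairFedVehicle and from 7.93 to 8.78 in LAGIPRA, with medians of 6.99 and 8.49 (1.36 ± 0.21, adjusted p = 0.00016). Rbp4, the retinol carrier, differed by 0.77. Cfd, adipsin, a complement protease secreted by adipocytes, ran from 10.10 to 11.82 in PairFedVehicle and from 9.11 to 10.10 in LAGIPRA (-1.32 ± 0.27, adjusted p = 0.0023). Adig, a small protein of adipocytes, differed by -0.36, and adiponectin, Adipoq, was not called (0.02 ± 0.09, adjusted p = 0.92). Of 21 secreted factors of brown fat, Ptgds, prostaglandin D2 synthase, was higher (1.57 ± 0.18, adjusted p = 4.8e-06), as was Vegfb (0.38, adjusted p = 0.047). Vegfb lost its call without LAGIPRA 3, 4, 5 or 6 or PairFedVehicle 2, 4, 5 or 6, and Adig without LAGIPRA 6, with adjusted p from 0.051 to 0.12. Without PairFedVehicle 4 the higher adipokines were 4.

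Clock and stress genes are given by list, and over all genes tested 7.3% were called higher and 4.55% lower. Of 19 clock genes 4 were higher, Nfil3 (1.03), Cry1 (0.74), Arntl (0.71) and Bhlhe40 (0.41), and 2 lower, Dbp (-0.68) and Bhlhe41 (-0.47). Cry1 is a repressor and Arntl an activator of the loop that drives Dbp, and the nuclear receptor gene Nr1d1 was not called (-0.16, adjusted p = 0.48). Both lower calls were lost without PairFedVehicle 2 or 5 or without LAGIPRA 4 or 5, Dbp also without LAGIPRA 1 or 2 or PairFedVehicle 3 or 4, and Bhlhe41 also without PairFedVehicle 6. Bhlhe40 was not called without LAGIPRA 1, 3 or 4 or PairFedVehicle 5 (adjusted p 0.052 to 0.069). The time of day of tissue collection is not given in the labels. Of 24 immediate early genes, Fosb (2.22 ± 0.51, adjusted p = 0.0057), Jun (0.66) and Jund (0.52) were higher, whereas Egr1 was not called (-0.11). Among 17 glucocorticoid-responsive genes Angptl4 was higher (0.48) and Mt1 lower (-0.54), and Fkbp5 was not called (-0.20). Of 18 ATF4 targets and serine synthesis genes, Psph (0.67) and Phgdh (0.54) were higher and Ddit4 (-0.93 ± 0.22, adjusted p = 0.0069) and Sesn2 (-0.56) lower. Of 23 endoplasmic reticulum chaperone genes, Xbp1 was lower (-0.27). Single libraries ended some of these calls, with adjusted p from 0.0502 to 0.12. They were LAGIPRA 4 for Jun, LAGIPRA 3, 4 or 5 or PairFedVehicle 2, 3, 5 or 6 for Angptl4, LAGIPRA 4 or PairFedVehicle 2 or 4 for Phgdh, and LAGIPRA 2, 3 or 5 or PairFedVehicle 2, 4 or 5 for Xbp1.

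Interferon-stimulated genes were the list with the largest share of lower calls, 12 of 27 with none higher and a median of -0.63. Irf7, the transcription factor that amplifies interferon responses, ran from 5.86 to 7.0 in PairFedVehicle and from 4.81 to 5.95 in LAGIPRA (-1.11 ± 0.25, adjusted p = 0.0057). Ifit2 stood at 6.05, 6.47 and 6.95 in PairFedVehicle and at 5.28, 5.43 and 6.02 in LAGIPRA (-0.97 ± 0.21, adjusted p = 0.0035), with no overlap. Oasl1 differed by -1.43, Ifit3 by -1.05, Ifit1 by -1.0 and Oas3 by -1.54. Ifit3 lost its call without PairFedVehicle 2, and Oas3 without LAGIPRA 3, 4 or 5 or PairFedVehicle 2, 3, 4 or 5, with adjusted p from 0.0504 to 0.095. All 27 members lay below 0, but the count went to 6 without PairFedVehicle 2, to 7 without PairFedVehicle 3, and to 5 with the 1-read covariate. For Ifit2 LAGIPRA minus Vehicle was -0.90 (adjusted p = 0.011) and PairFedVehicle minus Vehicle 0.07 (adjusted p = 0.88).

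Of 30 chemokine, cytokine and receptor genes 3 were lower, Il1rn (-1.25), Ccl3 (-1.02, adjusted p = 0.031) and Cx3cl1 (-0.81 ± 0.15, adjusted p = 0.0011), and Ackr3 was higher (0.43). The 3 lower calls became 1 without LAGIPRA 4, 5 or 6 or PairFedVehicle 2, 4 or 5, 6 without PairFedVehicle 1 and 1 with the 1-read covariate. Ccl3 lost its call without LAGIPRA 4, 5 or 6 or PairFedVehicle 2, 4 or 5, and Il1rn without these or LAGIPRA 2 or 3 or PairFedVehicle 3. Ackr3 was not called without LAGIPRA 1, 4, 5 or 6 or PairFedVehicle 2, 3, 4 or 5. The adjusted p of these 3 genes then ran from 0.054 to 0.12. Ccl2 was not called (-0.70 ± 0.44, adjusted p = 0.34). Among 23 genes of antigen presentation H2-T23 (-0.57) and B2m (-0.40) were lower. Of 18 complement and coagulation genes 3 were lower, C1s1 (-0.35), F3 (-0.63) and the adipokine Cfd, and 6 were lower without LAGIPRA 2. B2m lost its call when any 1 library other than LAGIPRA 2 or 3 or PairFedVehicle 1 was left out, and C1s1 without LAGIPRA 4, 5 or 6 or PairFedVehicle 2, 4, 5 or 6, with adjusted p from 0.0504 to 0.12.

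Markers of blood cells were examined in the same comparison, and their part in the immune results was not tested. Of the macrophage, neutrophil and lymphocyte means, only the neutrophil mean did not overlap between the groups. Over all genes tested 7.3% were called higher and 4.55% lower. The mean of 20 macrophage markers was 6.24 to 7.26 in LAGIPRA and 6.49 to 7.99 in PairFedVehicle. Fcgr1 was lower (-1.40, adjusted p = 0.025, not without LAGIPRA 4 or 5 or PairFedVehicle 2, 4 or 5), Lyve1 was higher (1.09) and 18 were not called, among them Adgre1 (-0.64) and Cd68 (-0.96, adjusted p = 0.07). Without PairFedVehicle 1, 8 of the 20 were lower. The mean of 8 neutrophil markers was 2.53 to 3.13 in LAGIPRA and 3.23 to 3.92 in PairFedVehicle, without overlap. S100a9, a calcium-binding protein abundant in neutrophils, ran from 6.64 to 7.25 in PairFedVehicle and from 5.24 to 6.09 in LAGIPRA (-1.45 ± 0.20, adjusted p = 6.7e-05), while its partner S100a8 was not called (-0.53, adjusted p = 0.19). The mean of 14 lymphocyte markers was 2.42 to 3.10 in LAGIPRA and 2.86 to 3.51 in PairFedVehicle. Of the 6 tested, only the B cell gene Ighm lay above 0 (1.32 ± 0.17, adjusted p = 2.1e-05), and the median was -0.45. Ly6c2, a monocyte and endothelial surface protein gene, was lower (-1.0 ± 0.13, adjusted p = 3.2e-05). Retnlg (-1.61) and Gzma (-1.22) were the other lower calls among neutrophil and lymphocyte markers. Retnlg lost its call when any 1 library other than LAGIPRA 4 or 6 was left out, and Gzma without LAGIPRA 1, 4, 5 or 6 or PairFedVehicle 2, 3, 4 or 5, with adjusted p from 0.062 to 0.12.

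Erythroid markers and heme genes were examined together because blood remains in the tissue. The mean of 9 erythroid markers was 8.93 to 9.997 in LAGIPRA and 7.42 to 9.95 in PairFedVehicle. With all libraries 1 of the 9 was called higher and none without PairFedVehicle 2 or 5, and 7 of the 9 were higher when PairFedVehicle 6 was left out, which had the highest mean of its group. Alas1, the first enzyme of heme synthesis in tissues other than red cells, ran from 9.63 to 10.11 in PairFedVehicle and from 10.64 to 11.22 in LAGIPRA (1.07 ± 0.09, adjusted p = 1.2e-07). Fech, the last enzyme of the pathway, was also higher (0.29). Hmox1, heme oxygenase 1, was lower (-1.16 ± 0.34, adjusted p = 0.029), with overlap, as were the iron exporter gene Slc40a1 (-0.53) and Cp (-0.37), of 20 heme and iron genes tested. Hmox1 lost its call without LAGIPRA 4 or 5 or PairFedVehicle 2, 3, 4 or 5, Slc40a1 also without LAGIPRA 1 or 3, and Cp when any 1 library other than LAGIPRA 2 or PairFedVehicle 1 or 4 was left out (adjusted p 0.0502 to 0.12). No heme or iron gene was lower without LAGIPRA 4 or 5 or PairFedVehicle 2, 3 or 5, 1 without LAGIPRA 3 or PairFedVehicle 4, and 5 without PairFedVehicle 1.

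Matrix and growth factor genes showed few calls. None of 20 collagens and none of 29 cell division genes on the lists was called by limma. At an unadjusted p under 0.05 there were 1 collagen and 6 cell division genes on these lists. The collagen list is not complete. Of 25 tested genes with Col and a number in the symbol, 2 were higher and none lower. Of 33 matricellular and crosslinking genes 2 were higher (Cyr61 at 0.60 and Sparc at 0.25) and 2 lower (Thbs2 at -0.78 and Fbln5 at -0.39). Of 21 metalloproteases and inhibitors Mmp15 was higher (0.59) and Mmp11 lower (-0.82). Among 26 TGF-beta and BMP genes Bmp2 (0.62) and Tgfb3 (0.57) were higher, and among 23 Wnt genes the receptors Fzd7 (-0.38) and Fzd1 (-0.31) were lower. The 2 growth factor calls became none without PairFedVehicle 3, Bmp2 being lost also without LAGIPRA 4 or PairFedVehicle 4 and Tgfb3 without LAGIPRA 5 or PairFedVehicle 2. Fzd1 lost its call without LAGIPRA 1 or PairFedVehicle 1 or 2, and Cyr61 without LAGIPRA 1, 2, 4 or 5 or PairFedVehicle 1, 2, 3 or 5. The adjusted p of these 4 genes then ran from 0.052 to 0.12.

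In the glutathione and oxidative stress list 3 of 33 genes were higher, Sod2, Sod3 and Prdx3, and 4 lower. Gstt2, a theta class glutathione transferase, ran from 7.03 to 7.52 in PairFedVehicle and from 5.83 to 6.14 in LAGIPRA, a difference of -1.36 ± 0.09 (adjusted p = 9.4e-09). Gpx3 (-0.68), Gsr (-0.45) and Gstt3 (-0.39) were the others. Gstt3 lost its call when any 1 library other than LAGIPRA 3 or PairFedVehicle 1 or 6 was left out. Sod2 lost it without LAGIPRA 4 or 5 or PairFedVehicle 4 or 5, and Prdx3 without LAGIPRA 4 or 5 or PairFedVehicle 2 or 4. Of 30 autophagy and lysosome genes 5 were lower, among them the mitophagy receptor gene Bnip3 (-0.66 ± 0.12, adjusted p = 0.00075), Sqstm1 (-0.48) and Lgmn (-0.83). Lgmn was not called without LAGIPRA 3, 4, 5 or 6 or PairFedVehicle 2, 3, 4 or 5, and the adjusted p of these 4 genes when lost ran from 0.052 to 0.13. The count of lower autophagy and lysosome genes was 2 to 3 without LAGIPRA 4, 5 or 6 or PairFedVehicle 2, 4 or 5 and 9 without PairFedVehicle 1.

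Of 20 imprinted genes 2 were higher and 2 lower. Peg3os, transcribed antisense to Peg3, ran from 8.85 to 9.94 in PairFedVehicle and from 7.42 to 8.32 in LAGIPRA (-1.67 ± 0.26, adjusted p = 0.00018). Peg3 was not called (-1.06 ± 0.48, adjusted p = 0.16), and without stated strandedness reads of this pair cannot be told apart. Zim1, from the same imprinted cluster, was lower (-1.27 ± 0.32, adjusted p = 0.011). Necdin, Ndn, was higher (0.99 ± 0.09, adjusted p = 1.6e-07), running from 9.74 to 10.45 in PairFedVehicle and from 11.04 to 11.34 in LAGIPRA, as was Snrpn (0.45). The other 16 were not called.

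The Vehicle samples place these differences beside the other contrasts, which share samples with this one and are therefore given only side by side. For Fasn, LAGIPRA minus Vehicle was 0.45 (adjusted p = 0.41) and PairFedVehicle minus Vehicle -2.83 (adjusted p = 2.9e-05). The same layout held for Acaca (0.25 and -2.35), Fdps (0.06 and -1.09), Npr3 (-0.28 and -1.89), Lep (-0.24 and -1.59) and Pik3r1 (-0.04 and -1.08). Gstt2 (0.08 and 1.44) and Cfd (0.33 and 1.65) mirrored it on the other side. Slc2a4 was laid out differently, with 1.0 (adjusted p = 0.0038) for LAGIPRA minus Vehicle and -0.24 (adjusted p = 0.43) for PairFedVehicle minus Vehicle. Mlxipl (0.77 and 0.15), Irs3 (0.63 and 0.04), Atp5o (0.39 and 0.01), Oasl1 (-1.38 and 0.04) and Cpt1a (-0.61 and 0.07) resembled Slc2a4 in this respect. Ucp1 was higher than in Vehicle in both groups, by 0.41 (adjusted p = 0.027) and 0.45 (adjusted p = 0.021).

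**Figure D5:**
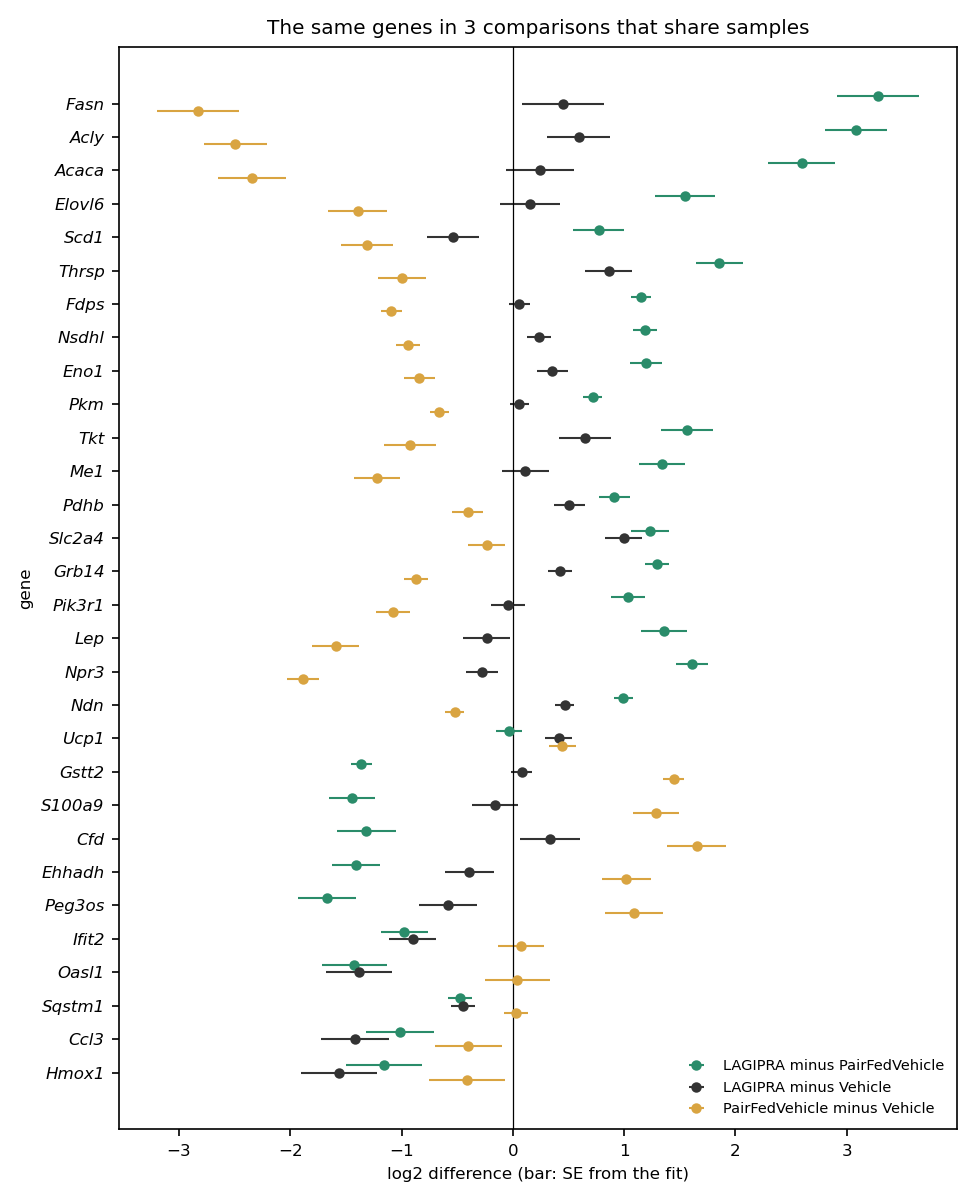
Log2 differences (horizontal, bars are the SE of the fit) of 30 genes for LAGIPRA minus PairFedVehicle (green), LAGIPRA minus Vehicle (black) and PairFedVehicle minus Vehicle (yellow). For Fasn the yellow point lies at -2.83 and the black one at 0.45, whereas for Slc2a4 they lie at -0.24 and 1.0.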

How the data were processed

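RNA came from brown fat by TRIzol and an RNeasy lipid kit, per the labels, and was polyA selected. The submitters' processing notes name cutadapt 1.9.1 and GSNAP without roles. The sources used here do not give the genome build, annotation, counting or strandedness. The deposited values of 23017 genes were read as log2 values that the authors quantile normalized; this scale and an offset near 1 were inferred from the values, so fold changes of low genes are understated. Reads per library are unknown.

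The lowest 25% of genes by mean (5754, below 2.86) were left out. limma 3.58.1 (R 4.3.3, trended empirical Bayes) fitted 1 mean per group to all 24 samples, with Benjamini-Hochberg adjustment over 17263 genes, two-sided. The median SE of a difference was 0.15. The procedure was tested on simulated data. The labels do not say whether samples came from separate animals, so p-values measure only the spread between these samples.

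Named genes were 21 fixed ones, the 12 highest and 12 lowest called genes at or above the median level of 5.33 whose groups did not overlap, and up to 2 called genes per list with the smallest p; members named beyond these were chosen after their values were seen. The comparison and its 63 lists (1508 entries, 18 without a row) were chosen with earlier results of these data known. Of 258 genes followed, 59 overlap another tested gene in RefSeq (GRCm38.p6), and reads may be shared. Promoter windows and symbols came from RefSeq. The CCAAT box, the GC box and the SRE core were added after seeing the data. The alternatives tried were other filters, normalizations, offsets, variance models, sample weights, covariates, thresholds, a replicate block and removal of each library. Figures used matplotlib 3.10.9. Values of some single genes are not reported here.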

Additional observations from a re-analysis of the deposited data

Results flagged for a closer look

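In 21 of 516 groups of 6 samples examined, 1 sample stood apart from the other 5 by a gap past Dixon's critical value. Chance flags about 1 in 20 such groups. The values are log2 expression values.

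Among lipid and sugar genes, PairFedVehicle 1 was the highest of its group for Thrsp (13.255), Tkt (10.745) and Slc27a2 (9.016), and PairFedVehicle 5 for Pgd (7.91). LAGIPRA 1 was highest for Hilpda (6.999) and LAGIPRA 5 lowest for Sqle (4.16). Mir5114, a row that overlaps Scd2, was highest in PairFedVehicle 6 (5.83), and Mir6392, which overlaps Pnpla3, in LAGIPRA 5 (5.57). LAGIPRA 4 was lowest for the muscle isoforms Eno3 (4.45) and Pgam2 (6.75).

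Among signalling, stress and regulator genes, LAGIPRA 5 was highest for Grb14 (7.76), LAGIPRA 3 for Ddit4 (9.112), LAGIPRA 4 for Bnip3 (8.63) and PairFedVehicle 1 for Mmp15 (6.66). LAGIPRA 1 was lowest for Fzd1 (9.67), PairFedVehicle 1 for Dbp (4.80) and PairFedVehicle 5 for Prdm16 (4.31) and Snrpn (6.48). LAGIPRA 4 was highest for Gpx3 (12.50) and PairFedVehicle 6 for Cp (6.05). Alas2, the erythroid enzyme of heme synthesis, was highest in LAGIPRA 1 (7.67), the library with the highest erythroid mean of its group.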

How the results depend on the processing

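Of 218 called genes followed one by one, 110 were tested and called under all 28 alternatives, 10 were called in each alternative that tested them, and 98 lost their call in at least 1. The 110 included Fasn, Acly, Acaca, Slc2a4, Lep, Npr3, Grb14 and Gstt2. None of the 218 changed direction. The 2046 calls became 818 (564 higher, 254 lower, 487 of at least 1.5-fold) with a replicate block on the 12 samples alone and 1752 with the block on all samples. After group means were taken off, correlations of same-number libraries ran from -0.318 to 0.0634. No LAGIPRA library correlated best with the PairFedVehicle library of its own number. Whether animals were matched by number cannot be told from these correlations. Sample weights gave 3260 calls (1442 lower), the 1-read covariate 1268 (787 higher, 481 lower) and removal of the 3 libraries low in muscle 523 lower. A threshold of 0.01 gave 900 (637 higher, 263 lower, 461 of at least 1.5-fold) and one of 0.1 gave 1274 lower. Leaving out 1 library gave 1404 to 2472 calls, 916 to 1502 higher, 461 to 970 lower and 580 to 954 of at least 1.5-fold. Lower calls fell from 786 to 506 without LAGIPRA 4, 481 without LAGIPRA 5, 511 without LAGIPRA 6, 461 without PairFedVehicle 2 and 494 without PairFedVehicle 4. The cause was not tested. Filters, normalizations, offset 4, variance models, the 12 samples alone and a muscle covariate kept the count between 1709 and 2046. Reads per library are unknown, so no counting error is given.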

Other observations

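Genes grouped by the stem of their symbol, a grouping made after seeing the data, showed families beyond the lists, although some members (Acot2, Acot4, Acot11) stand in the lists above. The families named here were picked after their calls were seen, from 163 stems with 10 or more members tested. Their shares therefore reflect that choice as well. Over all genes tested 7.3% were called higher and 4.55% lower. Of 61 histone genes tested 26 were higher in LAGIPRA than in PairFedVehicle and none lower, with a median difference of 0.50 and 50 members above 0. The linker histone gene Hist1h1e differed by 1.37 ± 0.18 (SE), and the core histone genes Hist1h3d and Hist1h4h by 1.38 and 0.87. The count ran from 21 to 27 when 1 library was left out and was 17 with the replicate block on the 12 samples. Many histone genes are near-identical copies, so single members are uncertain, and shared reads may be counted under more than 1 gene. Hist2h2aa1 and Hist2h2aa2 both differed by 0.55, and Hist1h2br and Hist1h2bq both by 0.73. Most histone messages lack a polyA tail, while this RNA was polyA selected. The cell division list had no called member of 29 and a median of -0.37.

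Of 13 tested genes of the Hspa family of heat shock proteins 5 were higher, including the inducible pair Hspa1a (1.28 ± 0.26) and Hspa1b (1.32 ± 0.27), near-identical copies whose reads may be shared. The acyl-CoA thioesterases were divided, with Acot11, Acot9 and Acot10 higher and Acot4, Acot1 and Acot2 lower of 10 tested. Of 11 Ly genes 4 were lower, among them Ly6c2 (-1.0) and Ly6c1 (-0.56), and 2 without LAGIPRA 6 or PairFedVehicle 4 and with the 1-read covariate. Acot2 was not called when any 1 library other than LAGIPRA 6 or PairFedVehicle 4 was left out. Of 351 Zfp zinc finger genes 2 were higher and 2 lower.

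Of 141 tested rows with Mir and a number in the symbol, 13 were called, 9 of them higher. Over all genes tested 11.9% were called. The lower calls include Mir17hg (-0.47) and Mir22hg (-0.76), which are microRNA host genes and not microRNAs. Of the 13 rows, 6 overlap a gene called in the same direction. Mir7116 lies in Acly, Mir3076 in Tkt, Mir5114 in Scd2 and Mir6392 in Pnpla3, so their rows cannot be told apart from host gene reads.

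A few weakly expressed genes had wide differences. Chil3, a chitinase-like protein of macrophages, differed by -2.54, Slfn4 by -2.41, Nptx1 by -2.45 and the neuropeptide gene Npy by -2.19. Nptx1 lost its call without LAGIPRA 2, 3, 4, 5 or 6 or PairFedVehicle 2, 3, 4 or 5, Npy without LAGIPRA 4 or 6 or PairFedVehicle 2, 3, 4 or 5, and Slfn4 without PairFedVehicle 2, with adjusted p from 0.051 to 0.085. Nptx2 differed by 2.77. Atp4b, a subunit of the gastric proton pump, averaged 4.51 in LAGIPRA and 0.16 in PairFedVehicle, where it was below the value of 1 read, so no fold is given.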
